A study of Homo sapiens with 12 samples.

Results

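Genes of molecular chaperones, meant to be those of the cytosol and the mitochondria, and HSF1 were followed as 52 of the 6777 genes listed. The cells were MDA-MB-231, a cell line grown from a human triple-negative breast cancer. They were chosen by symbol, with earlier results of these data known. The gene symbol had to begin with HSPA, HSPB, HSP90A or DNAJ, or to be HSPD1, HSPE1, HSPH1, TCP1, HSF1, TRAP1, STIP1, CCT2 to CCT8 or BAG1 to BAG6, and 6 chaperones of the endoplasmic reticulum were left out by name. Where each remaining protein lies in the cell was not checked, so the 52 can include proteins of the endoplasmic reticulum or the nucleus. The cells had received 10 nM AZD0095, an inhibitor of the lactate exporter MCT4, or the solvent DMSO for 4 h. RNA-seq measured transcripts and ribosome profiling measured the mRNA fragments covered by ribosomes, with 3 libraries in each of the 4 groups. The RNA libraries carry total RNA in their titles and polyA RNA as their molecule, which is not settled here and bears on the RNA levels and the footprint-to-RNA ratios. For the footprints, cells were given 100 µg/ml cycloheximide for 2 min, nuclei and mitochondria were taken out of the lysate, RNase I removed unprotected mRNA, and rRNA was depleted. All groups were this 1 line with no genetic change named in the labels. Nothing in the labels ties the replicates to separate cultures, so a p-value here reflects only how far these libraries scatter, and that scatter may be technical.

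The genes fell into 9 role classes. There were 21 J-proteins, the 8 subunits of the chaperonin TRiC, 8 BAG proteins and other cochaperones, 5 HSP70 proteins, 3 HSP110 proteins, 3 HSP90 proteins, the chaperonin pair HSP60 and HSP10 (2 genes), the small heat shock protein HSPB1 and the transcription factor HSF1. HSPBP1, which the HSPB stem brought in, releases nucleotide from HSP70 and was put with the cochaperones. Of the 52, 7 encode proteins that work in mitochondria: HSPA9, HSPD1, HSPE1, TRAP1, DNAJA3, DNAJC11 and DNAJC15. All are nuclear genes translated on cytosolic ribosomes. The name rule matches 87 protein-coding genes in RefSeq, of which 35 were not listed, HSPA1B, HSPA2 and HSPA6 among them. The lowest value in any table was 1.00 FPKM (fragments scaled to gene length and to the mapped fragments of the library), so a gene appears only where it passed that level in all 12 libraries.

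HSP70 proteins hold unfolded stretches of other proteins in a cycle of ATP hydrolysis. J-proteins deliver clients and trigger the hydrolysis, and nucleotide exchange factors, among them the HSP110 and BAG proteins, end the cycle. HSP90 takes over clients such as kinases and steroid receptors, with STIP1 as the bridge from HSP70, while TRiC folds actin, tubulin and other proteins inside a closed chamber and HSP60 with HSP10 does so in mitochondria. HSF1 binds repeats of the letters nGAAn, the heat shock element, and switches on many of these genes under heat or protein damage. HSPA8, also called HSC70, is the constitutive HSP70 of the cytosol and is abundant without stress.

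Promoter sequences were searched for the heat shock element because it is the site that HSF1 binds. RefSeq windows of GRCh38.p14, from 250 bases before to 50 bases after a start, were found for 47 of the 52 genes (64 windows). Those of BAG4, CCT6A, DNAJC24, HSF1 and HSPA14 were not in the table. The letters GAANNTTCNNGAA, on either strand, were in 6 of these 47 genes (12.8%), in 26 of the 5655 listed genes with a window (0.46%) and in 172 of all 35116 windows (0.49%). The shorter GAANNTTC, which lies inside the longer motif, was in 12 of 47 chaperone genes (25.5%) and in 6.33% of the listed genes. A match describes letters and shows no binding.

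The 6 genes with the longer motif were HSPA8, DNAJA1, HSP90AA1, HSP90AB1, HSPD1 and DNAJB6, and each stretch of 30 bases below is 5′ to 3′ on the strand of the gene with the match in capitals. Positions count from the start base as 0, and the HSPA8, HSP90AA1, HSP90AB1 and HSPD1 starts used here lie inside a gene span that reaches further upstream.
HSPA8, chr11:123062340-123062369 (- strand), bases -233 to -204: cttGAAAGTTCCAGAAcgctgcggtgagtg
HSPA8, chr11:123062165-123062194 (- strand), bases -58 to -29: cccTTCTGGAAGGTTCtaagatagggtata
DNAJA1, chr9:33025273-33025302 (+ strand), bases 0 to 29: gcgGAACTTTCCAGAAcgctcggtgagagg
HSP90AA1, chr14:102087106-102087135 (- strand), bases -91 to -62: ttcTTCCGGAAGGTTCgggaggcttctgga
HSP90AB1, chr6:44247775-44247804 (+ strand), bases -168 to -139: aggTTCTGGAAGATTCatgggctccttcct
HSP90AB1, chr6:44247828-44247857 (+ strand), bases -115 to -86: ttgTTCTGGAAGCTTCtggattctggcgcc
HSPD1, chr2:197500059-197500088 (- strand), bases -248 to -219: attTTCTGGAAAGTTCTGGAAccgagcgag
DNAJB6, chr7:157336870-157336899 (+ strand), bases -134 to -105: cgaGAACCTTCGCGAAggtggggcgggcgc
HSPA8 and HSP90AB1 had 2 separate matches each, and the 2 matches of HSPD1 overlapped. The match of DNAJA1 lay just after its start and the others lay before theirs.

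Some properties of the whole data set bear on every value. Summed over the 6777 genes, an RNA library held 446733 to 463626 FPKM and a footprint library 1188235 to 1332274. RNA depth is unknown. Relative footprint depth was recovered from the steps of low values: with DMSO library 1 set to 1, it was 0.865 and 1.55 in DMSO libraries 2 and 3, and 1.14, 1.75 and 4.05 in AZD0095 libraries 1 to 3. Vimentin (2522 FPKM of RNA in DMSO), CD44, KRT8, KRT18, CAV1, MSN and AXL, which mark this line, were listed, ERBB2 was at 16.8 FPKM, and ESR1, PGR and the leukocyte, fibroblast and endothelial markers looked for were not listed. The RNA libraries numbered 1 stood apart, that of AZD0095 more than that of DMSO. On the second principal component (28.5% of the RNA variance) they scored 3.18 (DMSO) and 12.2 (AZD0095), and the other 4 scored -7.90 to -0.0168. On the first (52.6%), libraries 1 to 3 scored 12.4, 6.56 and 4.00 in DMSO and -0.597, -9.98 and -12.4 in AZD0095. The labels give no batch or date. The chaperone genes shared in this: 29 of 52 (55.8%) were highest in library 1 in both groups, against 33.8% of all genes. Counts of called RNAs, HSPA8, the summed shares and the related gene lists are therefore given with all libraries and with libraries 2 and 3 alone. What set the libraries numbered 1 apart was not tested.

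In DMSO cells the chaperone RNAs spanned a 381-fold range of mean level. HSPA8 was highest at 2217 ± 129 FPKM (SD, n = 3), the eleventh highest RNA of all genes listed. HSP90AB1, the constitutive cytosolic HSP90, followed at 1281 ± 74.5 FPKM and HSP90AA1, its stress-inducible relative, at 573 ± 88.4 FPKM. The ranges of these 3 genes did not overlap. The lowest were DNAJC15 (5.82 ± 0.183 FPKM), DNAJC13 (6.47 ± 0.433 FPKM) and BAG4 (6.54 ± 0.474 FPKM), and DNAJC13 and BAG4 did not differ beyond their spread. HSPA1A, the stress-inducible HSP70, was at 38.4 ± 1.90 FPKM. HSPA1B, which encodes a nearly identical protein, was not listed, so how reads of that pair were assigned is unknown.

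Footprints ranked the same genes differently. HSPA8 was again highest among the chaperones, with 1302 ± 270.3 FPKM of footprints in DMSO, but HSP90AA1 (1052 ± 111 FPKM) and the TRiC subunit TCP1 (887 ± 382 FPKM) came next, and their ranges overlapped with that of HSPA8. Among all genes HSPA8 ranked 155 by footprints against 11 by RNA. HSP90AB1, second by RNA, had 234 ± 50.7 FPKM of footprints. The lowest footprint levels were those of DNAJC14 (6.71 ± 1.24 FPKM), HSPA4L (13.6 ± 8.39 FPKM) and DNAJC16 (17.03 ± 12.1 FPKM).

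Translational efficiency in DMSO was taken as the difference of log2(FPKM + 1) between footprints and RNA of same-numbered libraries, set to 0 at the median gene. It is a description with no test. The median of the 52 genes was -0.11, with 28 genes below the median gene and 24 above. Without the libraries numbered 3 its direction turned, to 0.0752, with 25 below and 27 above. HSP90AB1 had the lowest value of the chaperones, -3.61 ± 0.38 (SD, n = 3), which put it at percentile 0.103 of all genes. DNAJC14 followed with -2.21 ± 0.27 and HSPA8 with -1.92 ± 0.37 (percentile 4.04). The 3 HSP110 genes were also below 0, with HSPH1 at -1.78 ± 0.71, HSPA4L at -1.68 ± 0.84 and HSPA4 at -0.19 ± 0.28. The values of DNAJC14 and HSPA4L rest on the lowest mean footprint levels of the 52, 6.71 and 13.6 FPKM, and their reads are unknown. BAG5, at a mean of 23.8 FPKM, stepped as 3, 4 and 7 reads in DMSO, so these 2 values may rest on few reads. At the other end stood DNAJC15, a J-protein of the mitochondrial inner membrane, with 3.35 ± 0.48 (percentile 99.4), HSPB1 with 2.04 ± 0.30 and HSPBP1 with 2.00 ± 0.07. DNAJC15 had the lowest RNA level of the 52, and its footprints stepped as 13, 6 and 13 reads in DMSO. Its value may thus rest on few reads too. The most abundant chaperone RNAs, HSPA8 and HSP90AB1, thus had fewer footprints per RNA than the median gene, and HSP90AA1, at -0.26 ± 0.30, did not differ from it beyond its spread.

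**Figure D1:**
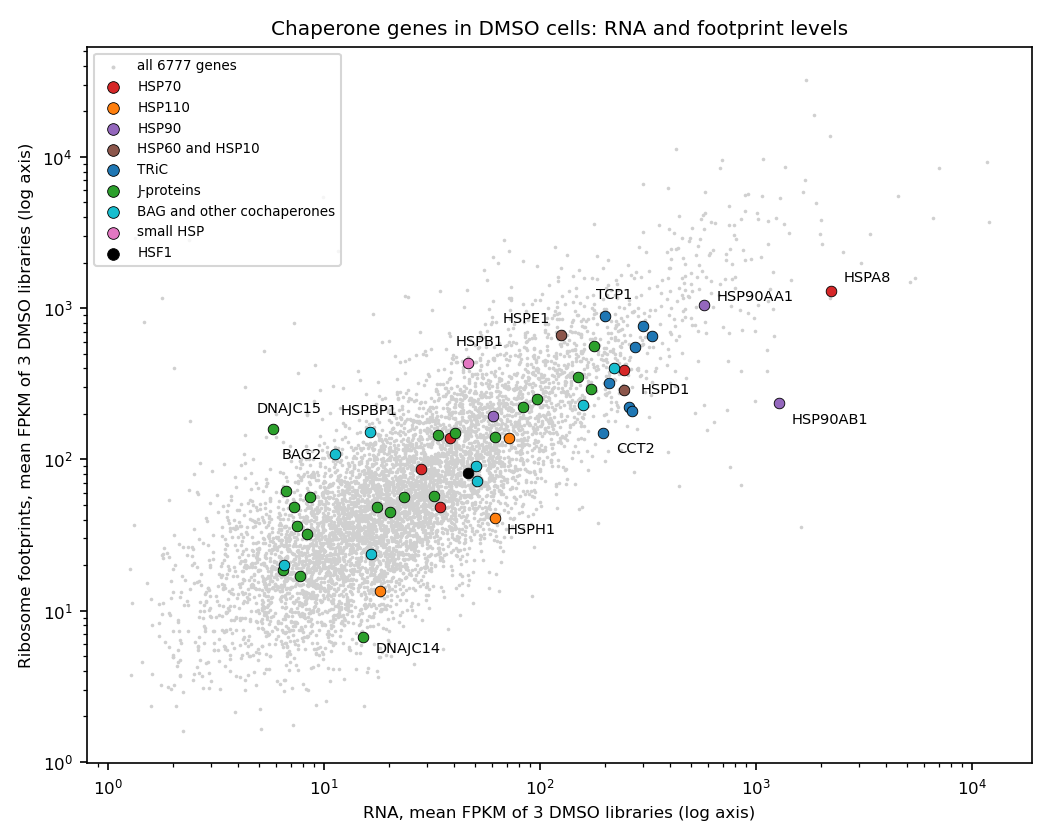
Mean RNA level (horizontal, FPKM, log axis) against mean footprint level (vertical, FPKM, log axis) of 3 DMSO libraries each, for the 52 chaperone genes coloured by class and for all 6777 genes in grey. HSP90AB1 and DNAJC14 lie at the lower edge of the cloud, HSPA8 is the chaperone farthest to the right, and DNAJC15 lies at the upper edge.

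Reads shared with gene copies limit these levels. RefSeq names pseudogenes after 21 of the 52 genes, most of them after HSPE1 (28), HSPD1 (22), HSPA8 (20), DNAJB6 (8) and DNAJA1 (6), and pseudogenes that carry other names were not counted. A gene with a count of 0, HSP90AA1 and HSP90AB1 among them, can therefore still have such copies. How the authors assigned reads that match several copies is not given in the sources used here. HSP90AA1 and HSP90AB1 are also close to each other in sequence, so the levels of single members are uncertain where short footprint reads match both.

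The TRiC subunits, which assemble in equal numbers into each ring, had similar RNA levels and dissimilar footprint levels. Mean RNA in DMSO ran from 196 ± 14.00 FPKM for CCT2 to 332 ± 6.95 FPKM for CCT3, a 1.69-fold range over the 8 genes. Mean footprints ran from 150.5 ± 59.5 FPKM for CCT2 to 887 ± 382 FPKM for TCP1, a 5.89-fold range. Footprints also scattered more, with a median SD within a group of 0.284 log2 for these genes against 0.105 for RNA. TCP1 itself had 485, 931 and 1245 FPKM in the 3 DMSO libraries. The footprints of CCT2, CCT6A (209 ± 34.5 FPKM) and CCT4 (223 ± 63.5 FPKM) were the lowest and did not differ from each other beyond their spread. CCT8 was at 322 ± 17.8 FPKM, CCT7 at 557 ± 101 FPKM, CCT3 at 649.5 ± 165 FPKM and CCT5 at 757 ± 65.9 FPKM. The ranges of TCP1 and CCT3 overlapped with each other and with those of CCT7 and CCT5, CCT7 lay just below CCT5, and each DMSO library of CCT2, CCT6A and CCT4 was below the lowest of CCT8. The mitochondrial pair showed a comparable contrast. HSPD1, the HSP60 barrel, and HSPE1, its HSP10 lid, lie 104 bases apart on chromosome 2. HSPD1 had more RNA (245 ± 30.02 against 126 ± 8.79 FPKM) and fewer footprints (289 ± 63.8 against 663 ± 126 FPKM), and in neither assay did their DMSO ranges overlap.

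The comparison of AZD0095 with DMSO asked which transcripts changed within 4 h of the inhibitor. HSPA8 RNA fell, and HSPA8 was the only 1 of the 52 chaperone genes to pass the RNA test with all libraries. HSPA8 (ENSG00000109971, GRCh38.p14 chromosome 11, 123057489 to 123062462) had 2352, 2202 and 2096 FPKM in DMSO and 1455, 1314 and 1308 in AZD0095. Every AZD0095 library was below every DMSO library, and the highest AZD0095 value was 1455 against a lowest DMSO value of 2096. The mean with AZD0095 was 0.613 times that with DMSO. In such bulk libraries, fewer cells that carry an RNA and less RNA per cell cannot be told apart. The log2 fold change, on the scale of log2(FPKM + 1), was -0.71 ± 0.06 (SE) with an adjusted p of 6.71e-04 (limma, Benjamini-Hochberg over 6777 genes). With libraries 2 and 3 alone it was -0.71 with an adjusted p of 1.48e-07 (limma). By its log2 fold change HSPA8 was the eighteenth lowest of all genes, and by its fall in FPKM it ranked 1.

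Of the 52 chaperone RNAs, 1 was called lower and 0 higher at an adjusted p under 0.05 (limma), where 3.01% of all genes were called lower and 5.03% higher (8.04% in either direction). At an unadjusted p under 0.05, 6 chaperone genes (11.5%) passed, against 24.2% of all genes. The median log2 fold change of the 52 was -0.05 and that of all genes 0.01. It was below 0 for 36 of 52 (69.2%), against 47.7% of all genes. AZD0095 was the lower library in each of the 3 same-numbered pairs for 19 of 52 (36.5%), against 26.6% of all genes. The AZD0095 libraries were all below the DMSO libraries for 2 genes, HSPA8 and DNAJA1 (11.5% of all genes), and all above for 4, BAG3, BAG6, DNAJC17 and HSPB1 (17.7% of all genes). The shares of chaperone genes with separate groups, 3.85% and 7.69%, were below those of all genes.

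Of the other HSP70 genes, 0 of 4 passed the RNA test. HSPA9, the mitochondrial HSP70, had 269.7, 234 and 228 FPKM in DMSO and 262, 235 and 226 in AZD0095, and its log2 fold change was -0.01 ± 0.08 (SE). HSPA1A had 38.2, 36.5 and 40.3 FPKM in DMSO and 36.8, 33.8 and 35.3 in AZD0095. Its groups overlapped, and its log2 fold change was -0.12 ± 0.06 (SE) (limma adjusted p 0.318). HSPA13 and HSPA14 were at 0.06 and -0.19 log2.

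Among the HSP110 exchange factors, HSPH1 had 68.2, 60.4 and 56.2 FPKM in DMSO and 58.3, 43.5 and 44.5 in AZD0095. Its highest AZD0095 library, number 1, lay between the DMSO libraries, and the other AZD0095 libraries were below all of them. Its log2 change was -0.34 ± 0.12 (SE) (limma adjusted p 0.129). HSPA4 had 80.6, 67.8 and 66.3 FPKM in DMSO and 80.96, 62.1 and 59.4 in AZD0095, with a log2 change of -0.09 ± 0.12 (SE) and overlapping groups.

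The HSP90 genes differed from one another in their values. HSP90AA1 had 672, 544 and 503 FPKM in DMSO and 589.6, 382 and 368 in AZD0095. In both groups library 1 was well above the others, and AZD0095 library 1 lay among the DMSO values. Its log2 fold change was -0.38 ± 0.18 (SE) (limma adjusted p 0.236). HSP90AB1 had 1362, 1267 and 1215 FPKM in DMSO and 1323, 1222 and 1246 in AZD0095, with a log2 change of -0.02 ± 0.06 (SE). TRAP1, the mitochondrial HSP90, had 59.5, 61.9 and 59.5 FPKM in DMSO and 60.4, 59.6 and 61.5 in AZD0095 and a log2 change of 0.00 ± 0.05 (SE). The latter 2 changed by less than the spread between libraries.

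**Figure D2:**
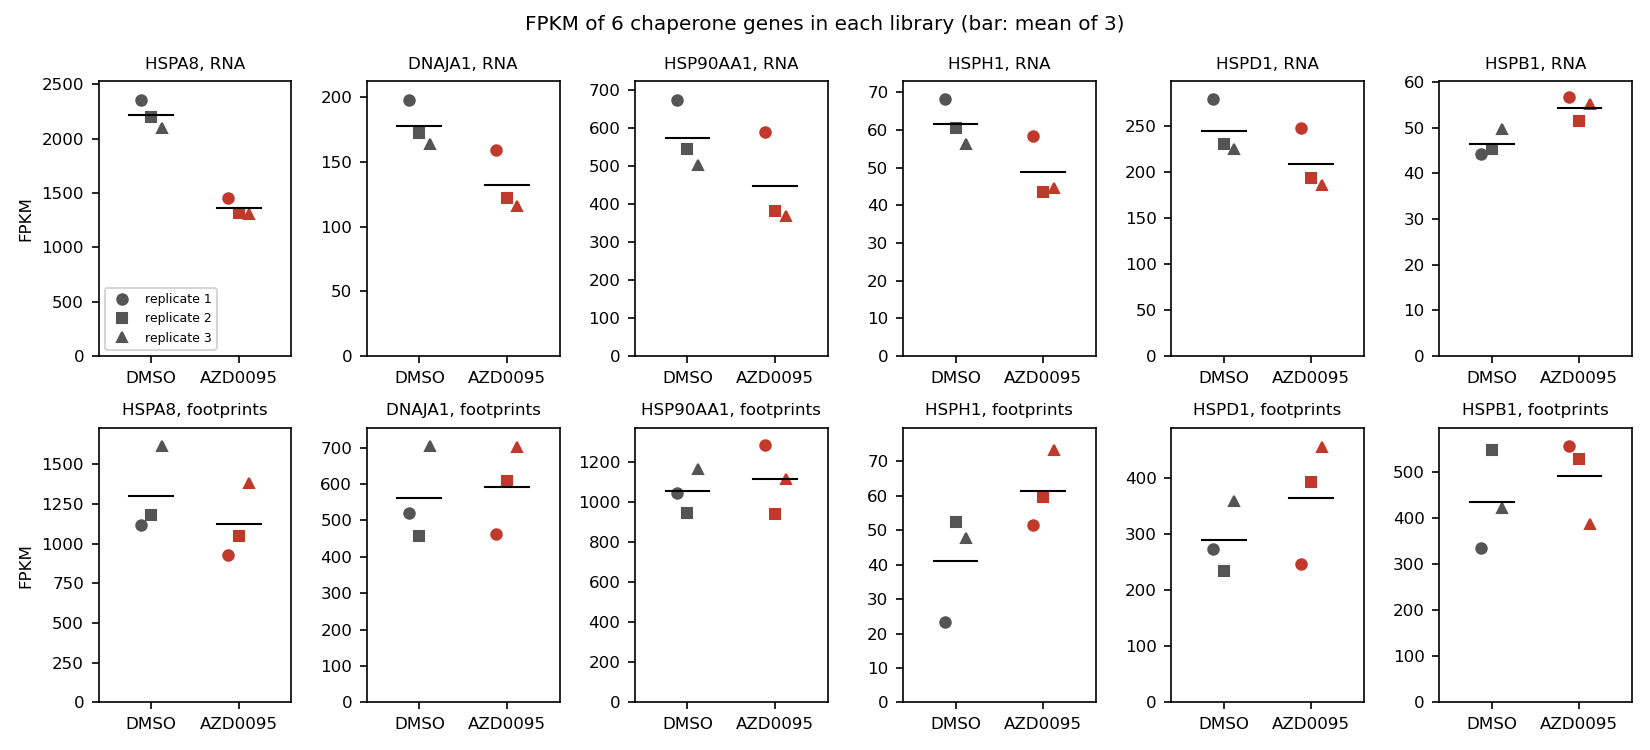
FPKM of HSPA8, DNAJA1, HSP90AA1, HSPH1, HSPD1 and HSPB1 in each library, RNA in the upper row and footprints in the lower row, with DMSO in grey, AZD0095 in red, a marker shape for each replicate number and a bar at the mean of 3. HSPA8 and DNAJA1 RNA separate by treatment downward and HSPB1 RNA upward, and the footprints of HSPA8, DNAJA1 and HSPB1 overlap between treatments.

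The chaperonins did not pass the RNA test. HSPD1 had 279, 231 and 225 FPKM in DMSO and 248, 193 and 186 in AZD0095, with a log2 change of -0.23 ± 0.12 (SE) (limma adjusted p 0.287). HSPE1 had 129, 132 and 116 FPKM in DMSO and 122, 109.7 and 112 in AZD0095, with a log2 change of -0.13 ± 0.07 (SE). Both pairs of groups overlapped. The 8 TRiC subunits all had RNA log2 fold changes at or just below 0, from -0.16 for CCT6A to values within 0.01 of 0 for CCT3 and CCT7, and 0 of 8 passed the test. CCT5 was at -0.08, CCT4 at -0.08, CCT8 at -0.06, CCT2 at -0.05 and TCP1 at -0.04 log2.

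The 21 J-proteins held both ends of the uncalled range. DNAJA1, a cytosolic partner of HSPA8, had 198, 172 and 164 FPKM in DMSO and 159, 122 and 116 in AZD0095. Every AZD0095 library was below every DMSO library, though AZD0095 library 1 was close to DMSO library 3. On the log2 scale the change was -0.43 ± 0.12 (SE) and missed the threshold (limma adjusted p 0.0644). DNAJC17 had 7.80, 8.25 and 6.52 FPKM in DMSO and 9.49, 10.5 and 9.87 in AZD0095, all AZD0095 libraries above the DMSO libraries, with a log2 change of 0.37 ± 0.10 (SE) (limma adjusted p 0.0599). DNAJB1, the inducible partner of HSP70, had 141, 152 and 156 FPKM in DMSO and 152, 146 and 152 in AZD0095, and its log2 fold change was 0.00 ± 0.05 (SE). DNAJA3, the mitochondrial J-protein, was at -0.07 ± 0.07 (SE). In the class as a whole 13 of 21 values were below 0 and 0 of 21 passed the test.

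Of the 8 BAG proteins and other cochaperones, 0 passed the RNA test. STIP1 had 224, 217 and 219 FPKM in DMSO and 221, 221 and 225 in AZD0095, with a log2 change of 0.01 ± 0.04 (SE). BAG3, which couples HSP70 to autophagy and is a classical HSF1 target, had 50.6, 51.7 and 51.1 FPKM in DMSO and 55.04, 54.9 and 54.97 in AZD0095. The groups of BAG3 did not overlap, the difference was small, 0.10 ± 0.05 (SE) log2, and it did not pass the test (limma adjusted p 0.244). Over the 8 genes of this class the RNA log2 fold changes ran from -0.10 (BAG2) to 0.10 (BAG3).

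HSPB1 (HSP27), a small heat shock protein that keeps unfolded proteins soluble without ATP, had 44.1, 45.3 and 49.6 FPKM in DMSO and 56.6, 51.5 and 55.1 in AZD0095. All AZD0095 libraries were above all DMSO libraries. The log2 fold change was 0.23 ± 0.07 (SE) and missed the threshold (limma adjusted p 0.0784). HSF1 itself had 44.2, 47.6 and 47.4 FPKM in DMSO and 46.1, 44.8 and 46.03 in AZD0095, with overlapping groups and a log2 change of -0.02 ± 0.06 (SE).

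**Figure D3:**
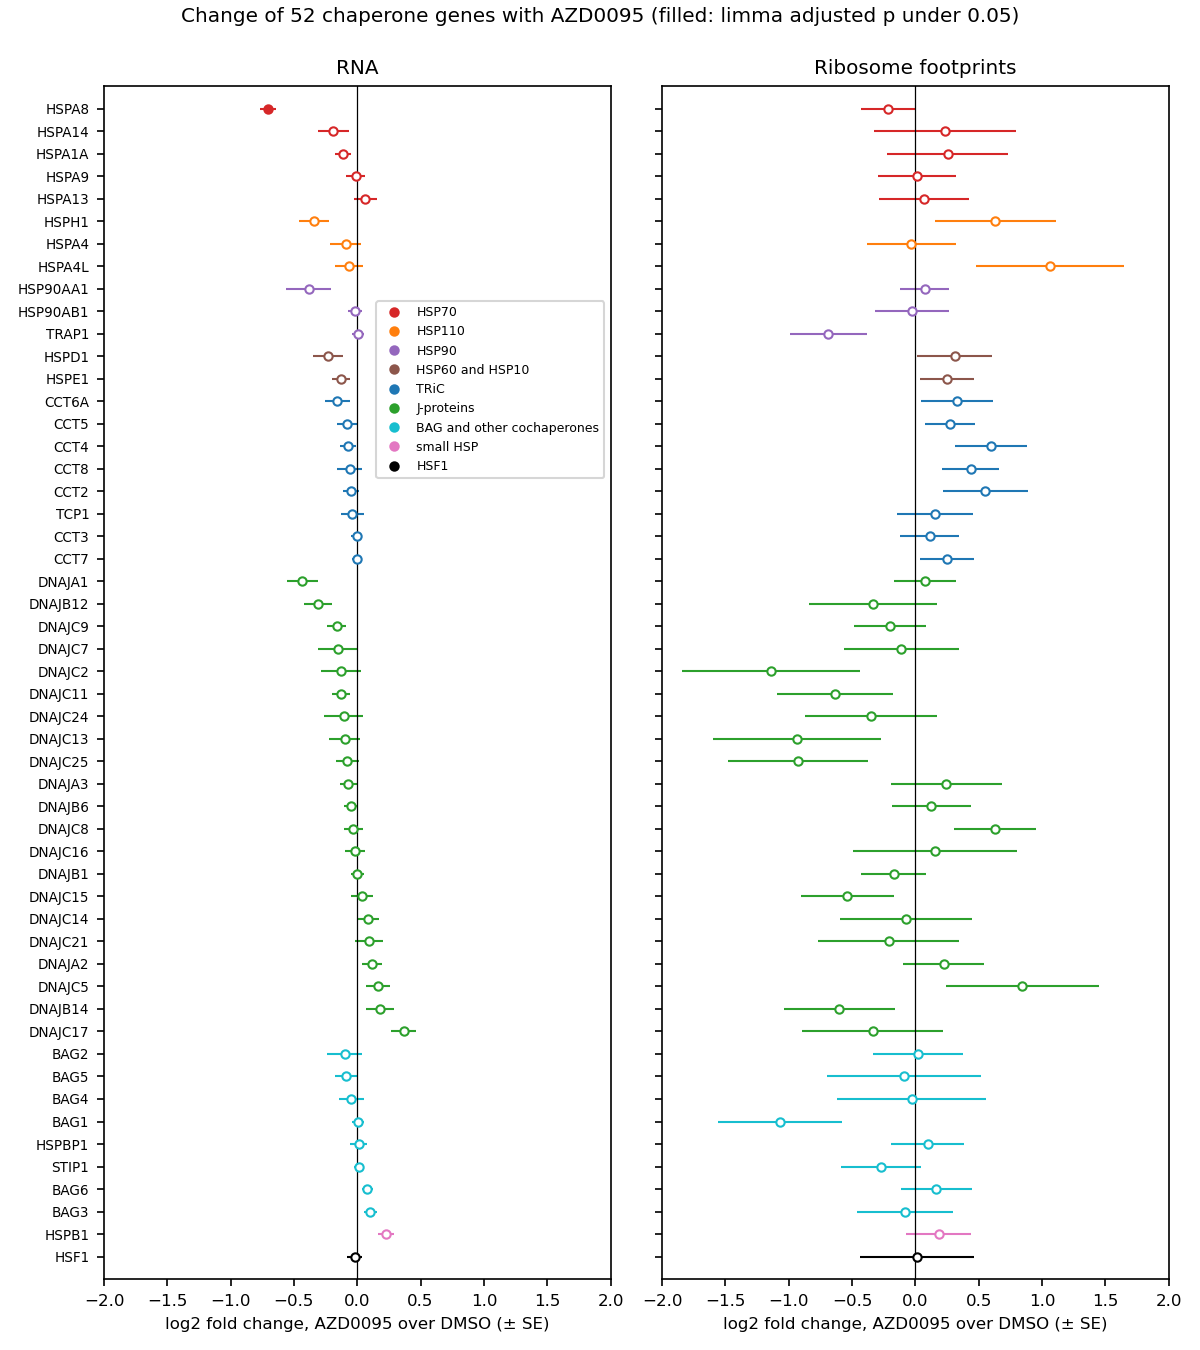
Log2 fold change of AZD0095 over DMSO (horizontal, ± SE) for each of the 52 chaperone genes, coloured by class, in RNA (left) and ribosome footprints (right), with a filled point where the limma adjusted p was under 0.05. HSPA8 RNA is the filled point, and the error bars are wider for footprints than for RNA.

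With libraries 2 and 3 alone, 10 chaperone RNAs passed the test (limma adjusted p under 0.05), 9 lower and 1 higher, where 10.9% of all genes were called lower and 9.68% higher (20.6% in either direction). The chaperone shares were 17.3%, 1.92% and 19.2%. At an unadjusted p under 0.05 there were 17 of 52 (32.7%), against 33.9% of all genes. The 9 lower genes were HSPA8 (-0.71 log2), DNAJA1 (-0.49), HSP90AA1 (-0.48), HSPH1 (-0.40), DNAJB12 (-0.36), DNAJC7 (-0.32), HSPD1 (-0.26), HSPA14 (-0.26) and CCT6A (-0.18), and the higher gene was DNAJC17 (0.42). HSPA8, DNAJA1, HSP90AA1 and HSPD1 of these carry the longer heat shock motif shown above, out of the 7 of the 9 that had a promoter window (CCT6A and HSPA14 had none). Over all chaperone genes with a window the motif was in 6 of 47 (12.8%), and HSP90AB1 and DNAJB6, which carry it too, were not called. The search took exact letters only. HSPA1A, DNAJB1, HSPB1 and BAG3, from the list of HSF1 targets and heat shock response genes, had a window without them and were not called either. HSPH1, from the same list, also had a window without them and was called lower. Whether the motif bears on these changes was not tested. Between the libraries numbered 1, 8 of the 9 lower genes also had less RNA with AZD0095, and DNAJC7 had more. HSP90AA1 differed by -0.19 log2 between the libraries numbered 1, by -0.51 between those numbered 2 and by -0.45 between those numbered 3. For HSPA8 these differences were -0.69, -0.74 and -0.68. The numbers do not mark a known pairing, so these are differences of single libraries.

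**Figure D4:**
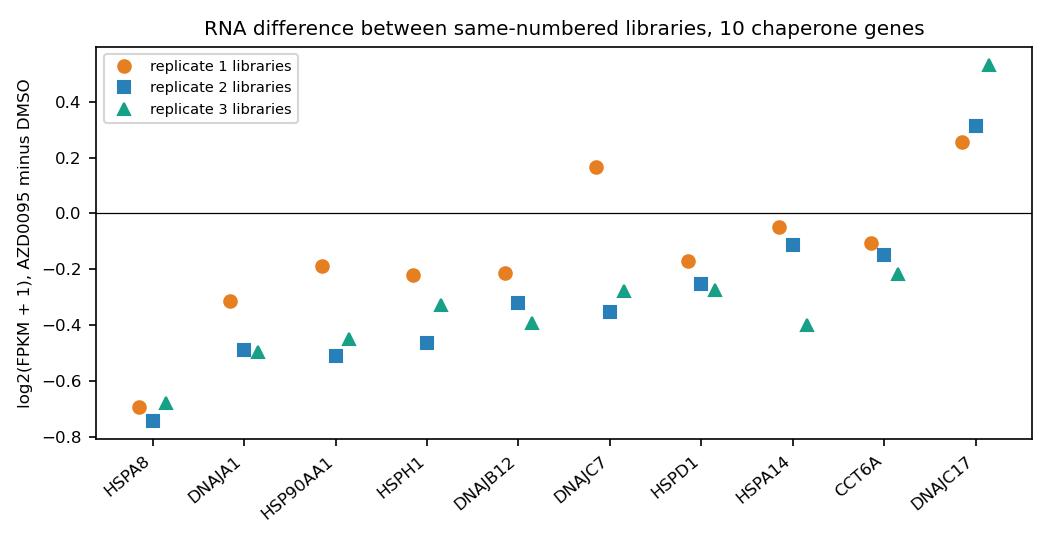
Difference in RNA, AZD0095 minus DMSO on the scale of log2(FPKM + 1), between libraries of the same number, for the 10 chaperone genes called with libraries 2 and 3 alone. The 3 HSPA8 points lie together between -0.74 and -0.68, and the HSP90AA1 point of the libraries numbered 1 lies at -0.19 above the other 2.

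HSPA8 made up most of the fall in summed chaperone RNA. The 52 genes made up 2.06, 1.86 and 1.80% of the summed RNA FPKM in DMSO and 1.78, 1.56 and 1.53% in AZD0095. The AZD0095 libraries were the lower ones in each same-numbered pair and all lay below the DMSO libraries. The mean went from 1.91 ± 0.14 to 1.63 ± 0.14% (SD, n = 3 each). HSPA8 alone went from 0.489 ± 0.034 to 0.297 ± 0.022%, and the other 51 genes from 1.42 ± 0.10 to 1.33 ± 0.12%, with overlapping ranges. With libraries 2 and 3 alone the means were 1.83 and 1.55% for the 52 genes, 0.470 and 0.284% for HSPA8, and 1.36 and 1.26% for the other 51. In FPKM the summed mean of the 52 genes fell by 1196, of which HSPA8 was 71.7% and HSP90AA1 10.6%. In footprints the 52 genes took 0.874, 0.979 and 1.08% in DMSO and 0.986, 1.04 and 1.18% in AZD0095, and these ranges overlapped.

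**Figure D5:**
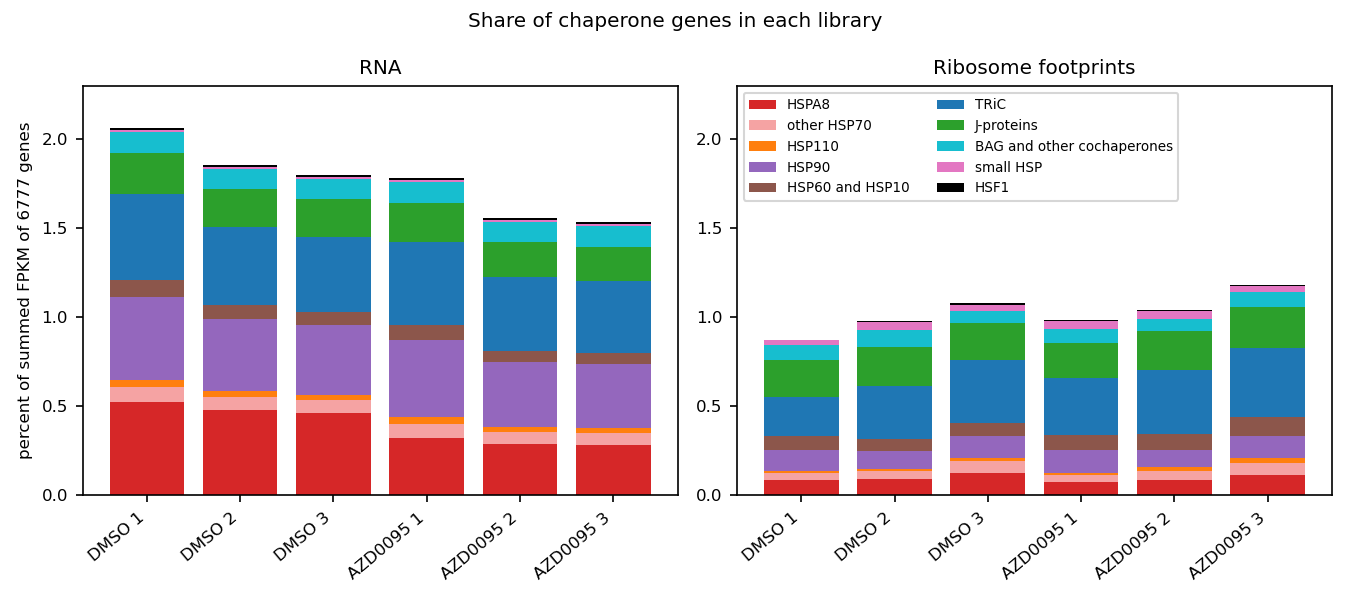
Percent of the summed FPKM of all 6777 genes taken by each chaperone class, stacked, in each RNA library (left) and footprint library (right). The red HSPA8 segment is lower in the 3 AZD0095 RNA libraries than in the 3 DMSO RNA libraries, and the total in footprints is about 1% in every library.

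Ribosome footprints addressed whether ribosome occupancy of the same genes changed. None of the 52 passed the test (0 of 52, with 0% of all genes called, limma adjusted p under 0.05), and at an unadjusted p under 0.05 there were 2 (3.85%) against 7.82% of all genes. The unadjusted count was 10 without DMSO library 3 (590 of all 6777 genes) and 0 without DMSO library 1 (543 of all genes). Footprint log2 fold changes were below 0 for 23 of 52 (44.2%, against 46.9% of all genes), and AZD0095 was lower in all 3 same-numbered pairs for 7 (13.5%, against 13.9%). The median SD of the 52 genes within a group was 0.41 log2 for footprints and 0.11 for RNA. What size of change could be detected at this spread is not given here. HSPA8 footprints were 1115, 1179.7 and 1612 FPKM in DMSO and 929.6, 1051 and 1383 in AZD0095. Library 3 was highest in both groups and the groups overlapped. Its log2 change was -0.22 ± 0.21 (SE) (limma adjusted p 0.853). The value was -0.05 without DMSO library 3, -0.09 without AZD0095 library 1 and -0.38 without AZD0095 library 3. HSPA8 was among the 7 genes lower in all 3 same-numbered pairs, with differences of -0.26, -0.17 and -0.22 log2.

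The 2 genes past the unadjusted threshold were TRAP1 and BAG1. TRAP1 footprints were 229.6, 183 and 167 FPKM in DMSO and 115, 135 and 107 in AZD0095, with every AZD0095 library below every DMSO library. On the log2 scale the change was -0.69 ± 0.30 (SE) (limma p 0.0433, adjusted p 0.631). BAG1, an exchange factor of HSP70, had 154, 61.3 and 54.98 FPKM in DMSO and 44.1, 34.5 and 35.5 in AZD0095 of footprints. These groups did not overlap either, and DMSO library 1 was far above the other DMSO libraries. The log2 fold change was -1.07 ± 0.49 (SE) (limma p 0.0497, adjusted p 0.638). Without DMSO library 1 it was -0.60. Both genes had RNA log2 fold changes within 0.01 of 0. DNAJB14 and DNAJC25, named for this after their values were seen, were the other 2 genes with all AZD0095 footprint values below DMSO (4 of 52, 7.69%, against 5.77% of all genes).

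TRiC subunits had footprint log2 fold changes above 0 in 8 of 8 cases, where 53.1% of all genes were above 0, and 0 of 8 passed the test. Without DMSO library 1, CCT3 and TCP1 turned to -0.11 and -0.23, and with libraries 2 and 3 alone to -0.12 and -0.14. CCT4 had 171, 204 and 294 FPKM in DMSO and 299.99, 309.9 and 384 in AZD0095. The AZD0095 libraries were all above the DMSO libraries, and the log2 fold change was 0.60 ± 0.28 (SE) (limma p 0.0552, adjusted p 0.65). CCT8 had 316, 309 and 342 FPKM in DMSO and 425, 402 and 485 in AZD0095, also without overlap, and a log2 change of 0.44 ± 0.23 (SE) (limma adjusted p 0.684). CCT2 was at 0.55, CCT6A at 0.33, CCT5 at 0.27, CCT7 at 0.25, TCP1 at 0.15 and CCT3 at 0.11 log2, each with overlapping groups. The summed TRiC share of footprints was 0.289 ± 0.066% in DMSO and 0.357 ± 0.034% in AZD0095 (SD, n = 3 each), with overlapping ranges. HSPBP1 was the third chaperone gene with all AZD0095 footprint values above DMSO (3 of 52, 5.77%, against 7.19% of all genes), by 0.10 ± 0.29 (SE) log2.

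The footprint log2 fold changes of the remaining core genes were below 1 in size, and their groups overlapped. Single libraries could differ by more, as for HSPA1A, which ran from 49.6 to 191 FPKM within DMSO. HSP90AA1 had 1046, 945 and 1166 FPKM in DMSO and 1286, 937 and 1115 in AZD0095, a log2 change of 0.07 ± 0.19 (SE). HSP90AB1 had 249, 178 and 276 FPKM in DMSO and 212, 189.9 and 286 in AZD0095, a log2 change of -0.03 ± 0.29 (SE). For both HSP90 genes the groups differed by less than the spread between libraries. DNAJA1 had 522, 458 and 706 FPKM in DMSO and 464, 609 and 703 in AZD0095, a log2 change of 0.08 ± 0.25 (SE). HSPH1 had 23.5, 52.2 and 47.8 FPKM in DMSO and 51.6, 59.5 and 73.4 in AZD0095, a log2 change of 0.63 ± 0.48 (SE), with DMSO library 1 lowest by far. Without that library the HSPH1 value was 0.28. HSPD1, HSPE1 and HSPB1 were at 0.31, 0.25 and 0.19 log2, and HSPA9, HSPA1A, HSPA4, STIP1, BAG3, DNAJB1, DNAJA3 and HSF1 at 0.01, 0.26, -0.03, -0.27, -0.08, -0.17, 0.24 and 0.01.

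For 10 of the 52 genes the footprint values stepped in whole reads, among genes searched up to 100 reads in DMSO library 1. DNAJA1 came to 79, 60 and 166 reads in DMSO and 80, 162 and 431 in AZD0095. HSP90AB1 came to 68, 42 and 117 reads in DMSO and 66, 91 and 316 in AZD0095. BAG2, at the low end, came to 12, 6 and 12 in DMSO and 10, 14 and 39 in AZD0095, and BAG5 to 3, 4 and 7 and to 2, 7 and 29. These are the smallest whole numbers that fit the steps, so the true reads could be multiples of them.

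The change in translational efficiency was the assay-by-treatment term of 1 model over all 12 libraries. That model takes 1 residual spread per gene for both assays, although footprints scattered more than RNA. Its SEs and p-values can therefore be too small. For TRAP1 the SE was 0.24, below the 0.30 of its footprint change alone. No chaperone gene passed (0 of 52, with 0% of all genes called, limma adjusted p under 0.05). At an unadjusted p under 0.05 (limma), 6 of 52 (11.5%) passed, against 8.53% of all genes. That count was not stable. In a fit to the footprint-to-RNA ratio of each same-numbered pair it was 1 (432 of all 6777 genes). Without footprint AZD0095 library 3 it was 1 (717 of all genes), and without footprint DMSO library 3 it was 17 (1065 of all genes). The 6 genes of the main fit follow. Lower with AZD0095 were TRAP1 (-0.69 ± 0.24 (SE) log2, limma adjusted p 0.472) and BAG1 (-1.07 ± 0.45 (SE), limma adjusted p 0.534). The values above 0 were those of CCT4 (0.67 ± 0.25 (SE), limma adjusted p 0.472), CCT8 (0.49 ± 0.19 (SE), limma adjusted p 0.489), HSPH1 (0.97 ± 0.41 (SE), limma adjusted p 0.536) and HSPA8 (0.49 ± 0.22 (SE), limma adjusted p 0.573). Without footprint DMSO library 1, BAG1 was at -0.61 and HSPH1 at 0.62. For HSPA8 this is the difference between an RNA log2 fold change of -0.71 and a footprint log2 fold change of -0.22, and it did not pass the test over all genes. Whether ribosome occupancy of HSPA8 followed its RNA was therefore not resolved.

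Related genes were counted for comparison, mostly genes outside the name rule, beside the 3.01% of all genes called lower and 5.03% called higher in RNA and the 47.7% below 0. Of 21 cochaperones of HSP90 and HSP70 with other names, 0 passed the RNA test, with a median log2 fold change of 0.002. Their values lay below 0 in 10 of 21. The counts were 0 of 10 for prefoldin and other TRiC cofactors (median -0.13, 8 of 10 below 0), 0 of 17 for mitochondrial folding, import and protease genes (median -0.03, 9 of 17 below 0) and 0 of 9 for chaperones of the endoplasmic reticulum (median 0.002, 4 of 9 below 0). Among 24 listed HSF1 targets and other heat shock response genes, of which 14 belong to the 52, 2 RNAs were lower and 0 higher (median -0.02, 14 of 24 below 0). These were HSPA8 and IER5, an HSF1-induced regulator of HSF1, which went from 24.5 ± 1.6 to 18.1 ± 0.2 FPKM (SD, n = 3 each), a log2 change of -0.41 ± 0.07 (SE) with an adjusted p of 0.0134 (limma). Of 11 protein quality control genes 1 was lower, the autophagy receptor SQSTM1, from 199 ± 2.28 to 167 ± 6.74 FPKM, a log2 change of -0.25 ± 0.05 (SE) with an adjusted p of 0.0196 (limma), and the median of that list was 0.04, with 5 of 11 below 0. With libraries 2 and 3 alone, where 10.9% of all genes were called lower and 9.68% higher, the RNA calls were 1 lower and 1 higher of 21 cochaperones, 3 lower and 0 higher of 10 prefoldin and TRiC cofactors, and 1 lower and 1 higher of 17 mitochondrial genes. They were 2 lower and 0 higher of 9 endoplasmic reticulum chaperones, 6 lower and 0 higher of 24 HSF1 target and heat shock response genes, and 1 lower and 2 higher of 11 quality control genes. The 6 were HSPA8, DNAJA1, HSP90AA1, HSPH1, HSPD1 and IER5 (-0.46 log2, limma adjusted p 6.95e-04). All of them but IER5 are among the lower chaperone RNAs already given above. SQSTM1 was at -0.28 log2 (limma adjusted p 0.00162). In each of these 6 lists 0 genes passed the test in footprints or in translational efficiency.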

How the data were processed

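RNA-seq and ribosome profiling values of 12 libraries were used as the authors deposited them, as FPKM per gene. The submitters' processing notes name the tools fastp, Bowtie2 and STAR and the build hg38. Which step each served, how reads were counted and annotated, and how FPKM was computed is not given in the sources used here. In the files, each table listed 6785 genes, and 8 repeated entries were removed.

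RNA and footprints were tested separately on log2(FPKM + 1) with limma 3.58.1 (trend, R 4.3.3), AZD0095 against DMSO, two-sided, with Benjamini-Hochberg adjustment over 6777 genes and a threshold of 0.05. Log2 fold changes on this scale understate changes of low genes. Translational efficiency was the interaction of assay and treatment. A minimum mean of 1 FPKM removed 0 genes. The scripts were tested on simulated data. Groups and replicate numbers came from the labels. Alternatives varied the pseudocount, filter, scaling, library weights, replicate terms and libraries.

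Footprint depth was taken from FPKM ratios of genes whose values step in whole reads (1193 genes, 17.6%, within 0.02 reads), which is too few for a test of counts. RNA values gave no such ratio.

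The members and lists were chosen with earlier results of these data known. Named in full were 26 core genes fixed by symbol (HSPA1B among them was not listed), all genes called or otherwise the 3 with the smallest p in each test, and the 3 highest and lowest in level and translational efficiency. Other names were chosen after their values were seen. All 52 identifiers matched the gene name table. RefSeq positions and promoter windows are of GRCh38.p14.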

Additional observations from a re-analysis of the deposited data

How the results depend on the processing

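With all libraries, 1 chaperone RNA and 545 of all RNAs were called. HSPA8 kept its call and direction under all 16 alternatives (log2 fold change -0.76 to -0.66, limma adjusted p 1.48e-07 to 0.00998). Median centring and quantile normalization each called 2 chaperone RNAs, adding DNAJA1. Array weights called 21 chaperone RNAs (5 higher, 16 lower) and 3086 of all RNAs, replicate 1 as a batch term 10 and 1660, and libraries 2 and 3 alone 10 and 1395. Leaving out 1 library at a time gave 1 to 7 chaperone RNAs (7 without AZD0095 replicate 1, 1 in each other case) and 100 to 1112 of all RNAs, fewest without DMSO replicate 2. The cause was not tested. The 3 higher and 8 lower chaperone RNAs of the replicate block are 11 calls, of 1622 among all RNAs. The labels name no pairing by number. Deviations of same-numbered RNA libraries correlated at 0.622, 0.0857 and 0.489 for numbers 1, 2 and 3. For numbers 1 and 3 no differently numbered library of the other group correlated better. RNA library 2 of DMSO correlated best with AZD0095 library 3 (0.234). Deviations of same-numbered footprint libraries correlated at 0.00878, -0.0223 and 0.0913. Whether the RNA libraries are paired by number was thus not settled. No alternative called a chaperone gene in footprints or translational efficiency, with the block or without it, and among all genes leaving out 1 library gave 0 to 4 calls in translational efficiency (4 without footprint DMSO replicate 1, 3 without replicate 2). The median baseline translational efficiency of -0.11 ran from -0.11 to 0.0752 with 1 replicate number left out, highest without replicate 3. The chaperone share of summed RNA FPKM differed by -0.28 percentage points (-0.36 to -0.20 without 1 library) and that of footprints by 0.092 (0.037 to 0.143). The share differences with libraries 2 and 3 alone, added after seeing the data, were -0.28 and 0.083. AZD0095 footprint libraries were on average 2.03 times as deep as DMSO libraries, and 1.27 times without AZD0095 library 3.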
